A study of Mus musculus with 16 samples.

Results

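The liver makes most circulating complement and clotting proteins, and 32 of their genes are described here, chosen by name as factors that hepatocytes secrete. All 32 were found among the 20284 gene symbols on the array, and all 32 passed the filter on dim probes, so none was lost before testing. They fall into 7 groups by role: lectin pathway (4 genes), complement C3 and C4 stage (4), terminal complement (5), fibrinogen (3), extrinsic and common coagulation (6), contact system (4), and inhibitors with fibrinolysis (6). F9, of the intrinsic route, is counted with the extrinsic and common group. The series compared livers of male ApoE KO mice, a strain without apolipoprotein E in which cholesterol-rich lipoproteins build up. Every animal was on a high-fat diet and had a labelled age of 8 weeks, and livers were taken after 8 weeks. One group of 8 received ctrl-inh, a control inhibitor, and the other group of 8 received miR-185-inh, a lentivirus that encodes an antisense strand to the microRNA miR-185. The liver cells that the virus entered are not named in the labels, and the level of miR-185 itself is not analysed here. The title and design text of the series place its question at bile acid metabolism.

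In the lectin pathway, circulating mannose-binding lectins recognise sugars on microbes and activate the MASP proteases, which cut C4. The alternative and lectin routes meet at C3, and the later components assemble into a pore in the target membrane. Coagulation runs in parallel as a chain of proteases that ends with thrombin, which turns fibrinogen into fibrin, while plasmin later dissolves the clot. Hepatocytes secrete nearly all of these proteins, and several of them rise in the acute phase response under interleukin-6.

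Each sample was hybridised to one 1-colour array. Between 58.7% and 74.8% of the 59305 non-control spots were well above background, the median signal ran from 182 to 268, and no spot was saturated. Levels below are log2 signal minus the 75th percentile of the array, and a difference is always miR-185-inh minus ctrl-inh. All ctrl-inh arrays lay on slide 1 (scan 1) and all miR-185-inh arrays on slide 2 (scan 2), so treatment cannot be told apart from slide or scan. Each slide held 2 rows of 4 arrays. The labels number the samples but do not call them separate animals, and each sample is taken here as 1 mouse. The p-values then reflect only how these samples scatter, and that scatter may be technical. All 25 hepatocyte identity and secreted genes were well above background on all 16 arrays. Apoe, the gene that all animals lack by their label, differed by 0.28 (SE 0.15, adjusted p = 0.311 by limma) between the groups, and whether its probe lies in the deleted part is not known here. In bulk liver, fewer cells of a type and less RNA per cell cannot be told apart.

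None of the 32 genes passed the adjusted p threshold of 0.05 in limma, a linear model fitted to 25801 features. Over all features 4.74% passed it. At an unadjusted p under 0.05, 5 of the 32 genes were called, against 20.3% of all features. The exact permutation test of single genes also gave 5 below 0.05. F10 is in both counts, by a probe chosen through its miR-185-inh values, as given further on. The differences ran from -0.18 (Fgb) to 0.25 (Masp1), with a median of -0.0032 against -0.033 over all features. Of the 32 genes, 16 lay below zero, where 58.0% of all features did. The groups overlapped for every one of the 32 genes, while 0.860% of all features had groups that did not overlap. The median SD within groups was 0.151 for the members and 0.209 over all features, many of them dimmer. Bright features outside the list, at a mean of at least 2.73, had median SDs of 0.118 in ctrl-inh and 0.145 in miR-185-inh mice, below the members' 0.159 and 0.156. A p that misses the threshold does not show equal levels, and the 95% intervals give the range of each difference.

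**Figure D1:**
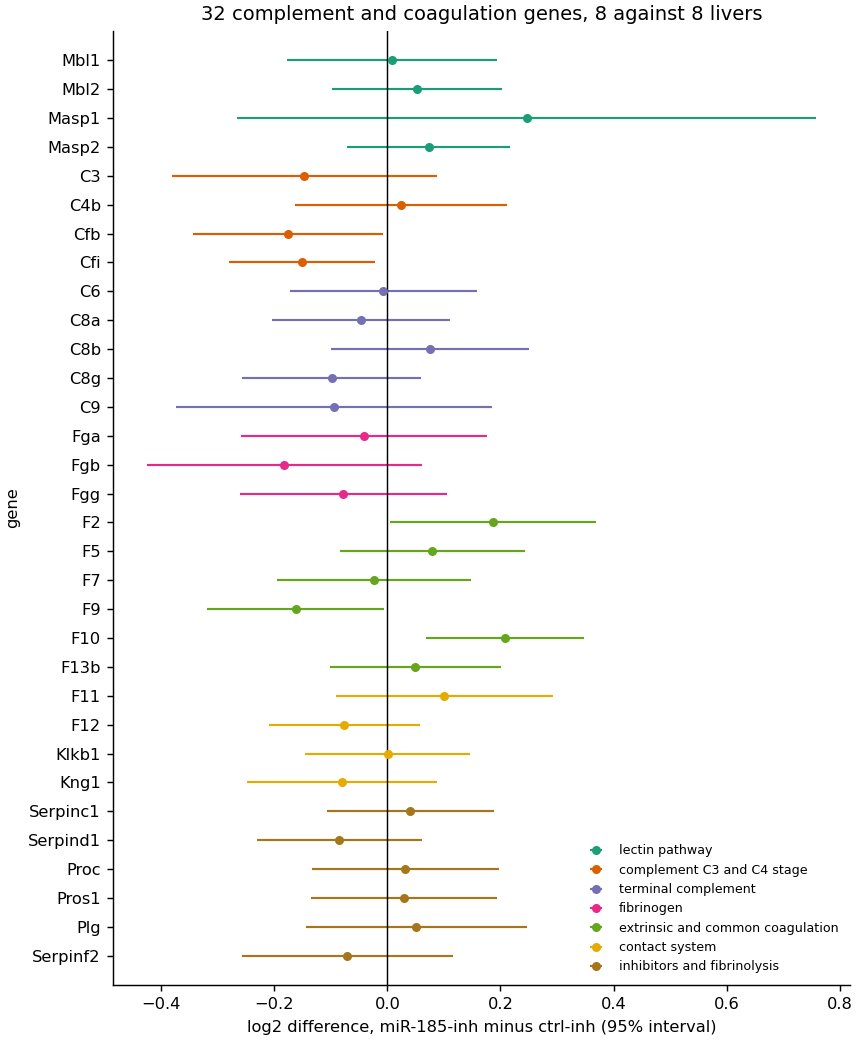
Log2 difference (miR-185-inh minus ctrl-inh, horizontal axis) of the 32 genes with 95% intervals from limma, coloured by role group, 8 mice in each group. The intervals of F10, F2, Cfi, Cfb and F9 do not cross zero before adjustment over all features, and that of Masp1 is the widest, from -0.27 to 0.76.

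All 4 lectin pathway genes had a difference above zero and none passed the test. Masp2, the protease that cuts C4, had the smallest p of the group. Its level ran from 4.09 through a median of 4.15 to 4.46 in ctrl-inh mice, and from 4.12 through 4.33 to 4.42 in miR-185-inh mice. The groups overlapped almost entirely, and the difference was 0.07 (SE 0.07, adjusted p = 0.598). Masp1, a protease that activates Masp2, had the largest spread of all 32 genes, with an SD of 0.74 in ctrl-inh and 0.12 in miR-185-inh mice. It ran from -2.44 through -0.46 to -0.09 in ctrl-inh mice, and from -0.61 through -0.49 to -0.26 in miR-185-inh mice. The lowest value belonged to ctrl-inh mouse 8, with the next at -0.85, and without that mouse the difference of 0.25 (SE 0.24, adjusted p = 0.620) became -9.67e-05. Mbl1 and Mbl2, the mannose-binding lectins, differed by 0.0078 (SE 0.088) and 0.05 (SE 0.07).

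At the C3 and C4 stage 3 of 4 genes lay below zero, and none passed the adjusted test. Cfi, which encodes the protease that inactivates C3b and C4b, ranged from 4.56 through 4.66 to 4.83 in ctrl-inh mice and from 4.37 through 4.51 to 4.69 in miR-185-inh mice. Of the 8 miR-185-inh mice, 7 lay below the ctrl-inh mean, and the difference was -0.15 (SE 0.06, adjusted p = 0.171, exact two-sided permutation p = 0.0127). Cfb, the protease subunit of the alternative C3 convertase, differed by -0.18 (SE 0.08, adjusted p = 0.224, exact two-sided permutation p = 0.0317). All 8 miR-185-inh mice lay below the ctrl-inh mean of Cfb. C3, on which every activation route converges, had 7 usable ctrl-inh values because 1 spot was marked as an outlier. These ran from 5.81 through 5.91 to 6.35, and the 8 miR-185-inh values from 5.49 through 5.78 to 6.11. The top ctrl-inh value, of mouse 12, stood apart from the next at 6.04. The difference of C3 was -0.15 (SE 0.11, adjusted p = 0.498), and a second C3 probe printed in 10 spots gave -0.18 (exact two-sided permutation p = 0.0626). C4b, the mouse C4 gene, differed by 0.02 (SE 0.09). A near-identical copy, Slp, lies beside it in the mouse, so hybridisation may not separate the copies.

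Terminal complement, which builds the membrane attack complex, had 4 of 5 genes below zero and none past the test. C8g, the small chain of C8, ran from 4.72 through 4.95 to 5.06 in ctrl-inh mice and from 4.59 through 4.85 to 5.09 in miR-185-inh mice. Its groups overlapped over nearly their whole range, with a difference of -0.10 (SE 0.08, adjusted p = 0.502). A second C8g probe gave -0.04 (exact two-sided permutation p = 0.460). Across all 16 arrays the r between the C8g probes was 0.32. C9, the subunit that polymerises into the pore, had the largest spread of the group, from 2.52 through 2.91 to 3.39 and from 2.45 through 2.80 to 3.33. Its difference was -0.09 (SE 0.13, adjusted p = 0.746), and ctrl-inh mouse 12 and miR-185-inh mouse 9 were the high ends. C6 differed by -0.0069 (SE 0.078), C8a by -0.05 (SE 0.07) and C8b by 0.08 (SE 0.08).

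The 3 fibrinogen chains, the clotting substrate and a classical acute phase product, all lay below zero and none passed the test. Fgb had both the smallest p and the largest spread. It ran from 5.65 through 5.93 to 6.24 in ctrl-inh mice and from 5.39 through 5.76 to 6.15 in miR-185-inh mice. The miR-185-inh range was wider and reached lower, yet 2 of its mice exceeded the ctrl-inh mean, and the difference was -0.18 (SE 0.12, adjusted p = 0.404). Fga differed by -0.04 (SE 0.10) and Fgg by -0.08 (SE 0.09). The 3 genes neighbour each other on mouse chromosome 3, and their promoters are shown because their correlations across mice are among the relations given further on. Each line is the 250 bases before the RefSeq start on build GRCm38.p6, written 5′ to 3′ on the strand of the gene: Fga at chr3:83025903-83026152 (plus), Fgb at chr3:83049864-83050113 (minus) and Fgg at chr3:83007474-83007723 (plus). Capitals mark CTGGGA, the core of the interleukin-6 response element, and ATTAAC, the reverse complement of the HNF1 half-site GTTAAT.
Fga: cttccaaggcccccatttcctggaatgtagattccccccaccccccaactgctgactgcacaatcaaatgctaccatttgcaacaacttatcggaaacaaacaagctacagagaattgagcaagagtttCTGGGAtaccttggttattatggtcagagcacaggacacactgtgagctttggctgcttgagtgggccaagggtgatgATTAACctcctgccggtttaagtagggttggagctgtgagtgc
Fgb: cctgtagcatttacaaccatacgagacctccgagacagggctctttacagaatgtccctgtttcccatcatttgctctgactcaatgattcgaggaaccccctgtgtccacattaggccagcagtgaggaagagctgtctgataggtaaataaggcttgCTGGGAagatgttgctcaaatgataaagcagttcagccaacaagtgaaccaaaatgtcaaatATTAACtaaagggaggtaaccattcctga
Fgg: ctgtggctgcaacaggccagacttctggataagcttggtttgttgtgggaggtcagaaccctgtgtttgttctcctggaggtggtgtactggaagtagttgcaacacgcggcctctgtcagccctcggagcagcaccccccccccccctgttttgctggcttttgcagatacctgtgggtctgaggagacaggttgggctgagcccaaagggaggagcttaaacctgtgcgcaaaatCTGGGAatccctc
Fga and Fgb hold both motifs, with CTGGGA starting 121 and 91 bases and ATTAAC 43 and 29 bases before the start. Fgg holds CTGGGA alone, 13 bases before the start. Searched on both strands over windows of the same length, CTGGGA was found in 27.0% of 32851 mouse promoters, and in 11 of the 25 members that matched a promoter by symbol. GTTAAT was found in 6.43% of all promoters and in 5 of those 25 members. The 2 motifs do not overlap. A match is a string of letters and not a site shown to be bound.

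The 6 genes listed as extrinsic and common pathway include F9 of the intrinsic route. Of the 6, 4 lay above zero, 3 had an unadjusted p under 0.05 and none passed the adjusted test. F10, the protease that makes thrombin from prothrombin, had the smallest p of all 32 genes. Its probe was chosen through its miR-185-inh values, as given below. F10 ran from 4.44 through 4.58 to 4.81 in ctrl-inh mice and from 4.66 through 4.76 to 5.02 in miR-185-inh mice. Every one of the 8 miR-185-inh values exceeded the ctrl-inh mean, though the ranges overlapped, and the difference was 0.21 (SE 0.07, adjusted p = 0.0787, exact two-sided permutation p = 0.00388). F2, which encodes prothrombin itself, ran from 4.23 through 4.41 to 4.68 and from 4.46 through 4.66 to 4.84. Here too none of the 8 miR-185-inh values fell short of the ctrl-inh mean, with a difference of 0.19 (SE 0.09, adjusted p = 0.234, exact two-sided permutation p = 0.0483). F9, the gene of the haemophilia B factor, lay the other way at -0.16 (SE 0.07, adjusted p = 0.226, exact two-sided permutation p = 0.0368). F5, the cofactor of factor X, differed by 0.08 (SE 0.08), F13b, a carrier of the fibrin cross-linking enzyme, by 0.05 (SE 0.07), and F7, which starts the extrinsic route, by -0.02 (SE 0.08).

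The F10 value hangs on which probe is read. The array carries a pair of F10 probes for different RefSeq transcripts, both well above background on all 16 arrays. Their means over both groups were 4.70 for the probe used and 4.68 for the other. The used probe was the brighter only in miR-185-inh mice (4.80 against 4.63). In ctrl-inh mice the other probe was the brighter (4.73 against 4.59). The brightest-probe rule thus took the used probe through the group where it was high. The F10 difference and its p depend on that choice. The other probe ran from 4.55 through 4.71 to 4.94 in ctrl-inh mice and from 4.45 through 4.61 to 4.81 in miR-185-inh mice. Its ranges overlapped and it lay lower, not higher, after miR-185-inh, by -0.10 (exact two-sided permutation p = 0.179). With the mean of both probes the F10 difference was 0.06 (adjusted p = 0.681 by limma). Within each array, the log2 ratio of the used to the other probe averaged -0.14 ± 0.09 (SD, n = 8) in ctrl-inh mice and 0.17 ± 0.17 (SD, n = 8) in miR-185-inh mice. This ratio, which does not depend on how whole arrays are scaled by a constant, rose by 0.31 (exact two-sided permutation p = 0.00109, adjusted p = 0.0109 over 10 probe pairs), and it exceeded the ctrl-inh mean in 8 of 8 treated mice. It was 0.29 in row 1 and 0.32 in row 2, and between 0.28 and 0.34 when any 1 mouse was left out. The probe pairs were compared after the F10 disagreement had been seen. Fga showed the next largest gap between probes: the used probe differed by -0.04 and the other by -0.32, a ratio difference of 0.28 (exact two-sided permutation p = 0.0171, adjusted p = 0.0855). The remaining 8 pairs, from C3, F7, C8a, Kng1, F5, Masp2 and C8g, had adjusted p of at least 0.365. A ratio within an array shows unequal change of the probes and does not say which of them stayed level.

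**Figure D2:**
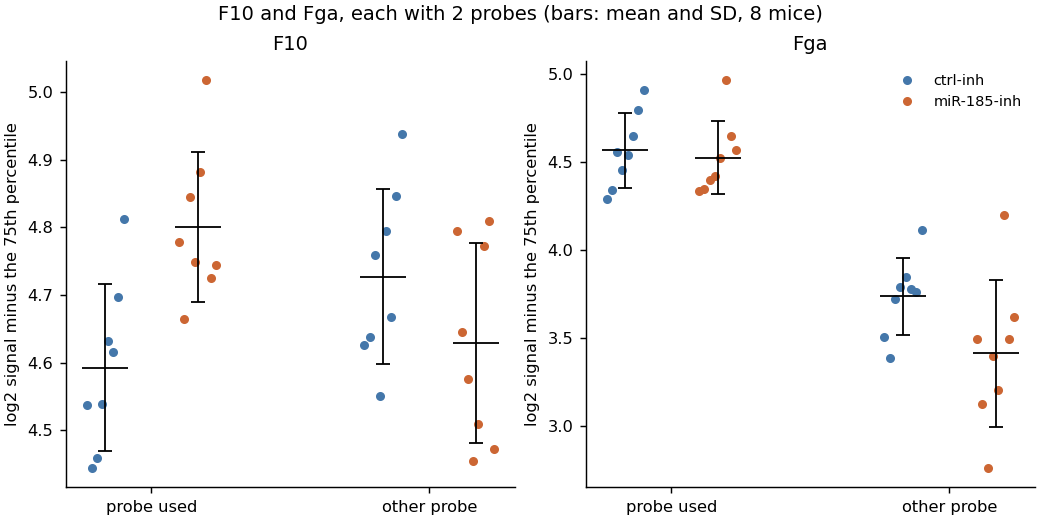
Log2 signal minus the 75th percentile for both probes of F10 (left) and of Fga (right), 1 point per mouse, with the mean and SD of 8 mice as black bars. For F10 the used probe averaged 4.59 in ctrl-inh and 4.80 in miR-185-inh mice, while the other probe averaged 4.73 and 4.63.

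The contact system starts coagulation on charged surfaces and releases bradykinin. Of its 4 genes, 2 lay above and 2 below zero, and none passed the test. F12, the protease that starts it, ran from 4.37 through 4.60 to 4.78 in ctrl-inh mice and from 4.37 through 4.52 to 4.68 in miR-185-inh mice. In an overlapping range 7 of 8 miR-185-inh mice lay below the ctrl-inh mean, and the difference was -0.08 (SE 0.06, adjusted p = 0.544). F11, its substrate, had the largest spread of the group and ran from 2.78 through 3.15 to 3.32 and from 2.93 through 3.26 to 3.48. Its difference was 0.10 (SE 0.09, adjusted p = 0.582). Klkb1, the prekallikrein gene, showed the smallest difference of all members, 0.00055 (SE 0.069), and Kng1, the kininogen gene, differed by -0.08 (SE 0.08).

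Among the 6 inhibitors and fibrinolysis genes, 4 lay above zero and none passed the test. Serpind1, which encodes heparin cofactor II, ran from 4.15 through 4.28 to 4.41 in ctrl-inh mice and from 3.98 through 4.26 to 4.43 in miR-185-inh mice. The miR-185-inh range enclosed the ctrl-inh range, and the difference was -0.09 (SE 0.07, adjusted p = 0.532). Plg, the precursor of plasmin, had the largest spread of the group, from 4.99 through 5.14 to 5.50 and from 5.03 through 5.28 to 5.52. Both ranges nearly coincided, with a difference of 0.05 (SE 0.09, adjusted p = 0.811). Serpinc1 (antithrombin), Proc (protein C) and Pros1 (protein S), the main brakes on clotting, differed by 0.04 (SE 0.07), 0.03 (SE 0.08) and 0.03 (SE 0.08). Serpinf2, the inhibitor of plasmin, differed by -0.07 (SE 0.09).

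The members moved together from mouse to mouse, and this depended on how the arrays were scaled. Under the 75th percentile the mean pairwise Pearson correlation among members, as a description across the 8 mice of a group, was 0.608 in ctrl-inh (31 genes with all values) and 0.594 in miR-185-inh mice (32 genes). Over all features it was 0.053 and 0.034, among hepatocyte genes 0.408 and 0.424, and among acute phase genes 0.532 and 0.728. Bright features outside the list, with a mean of at least 2.73, gave 0.416 and 0.426. That floor is the mean of Pros1, the dimmest member after Masp1, which lies far below it and was set aside in choosing the floor. Under quantile normalization, which gives every array the same distribution of values, the members' mean fell to 0.146 and 0.077, and that of the bright features to 0.0016 and 0.00096. Bright features in general thus showed a like dependence on the scaling, at lower values than the members. Quantile normalization also narrowed the members' median within-group SD, from 0.159 to 0.090 in ctrl-inh and from 0.156 to 0.092 in miR-185-inh mice.

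Per mouse, the median deviation of the members from their means over all 16 arrays ran from -0.13 in ctrl-inh mouse 2 to 0.24 in ctrl-inh mouse 12. Mouse 12 held the highest ctrl-inh value of 24 members and mouse 2 the lowest of 13. The array of ctrl-inh mouse 12 had the lowest median signal of all 16 arrays, 182, and that of ctrl-inh mouse 2 had 263. The part of array signal in these medians was not tested. In the other group the members' median deviation ran from -0.20 in mouse 7 to 0.17 in mouse 9. Mouse 9 held the highest miR-185-inh value of 15 members, and mice 7 and 12 held the lowest of 12 and 14. Acute phase genes had their highest medians in the same mice, 0.61 in ctrl-inh mouse 12 and 0.43 in miR-185-inh mouse 9, and their lowest, -0.51, in miR-185-inh mouse 7. Under quantile normalization the members' medians in ctrl-inh mouse 12 and miR-185-inh mouse 9 were 0.046 and 0.079, and those in miR-185-inh mice 7 and 12 were -0.034 and 0.014. The part of the acute phase genes in the members' movement was not tested.

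**Figure D3:**
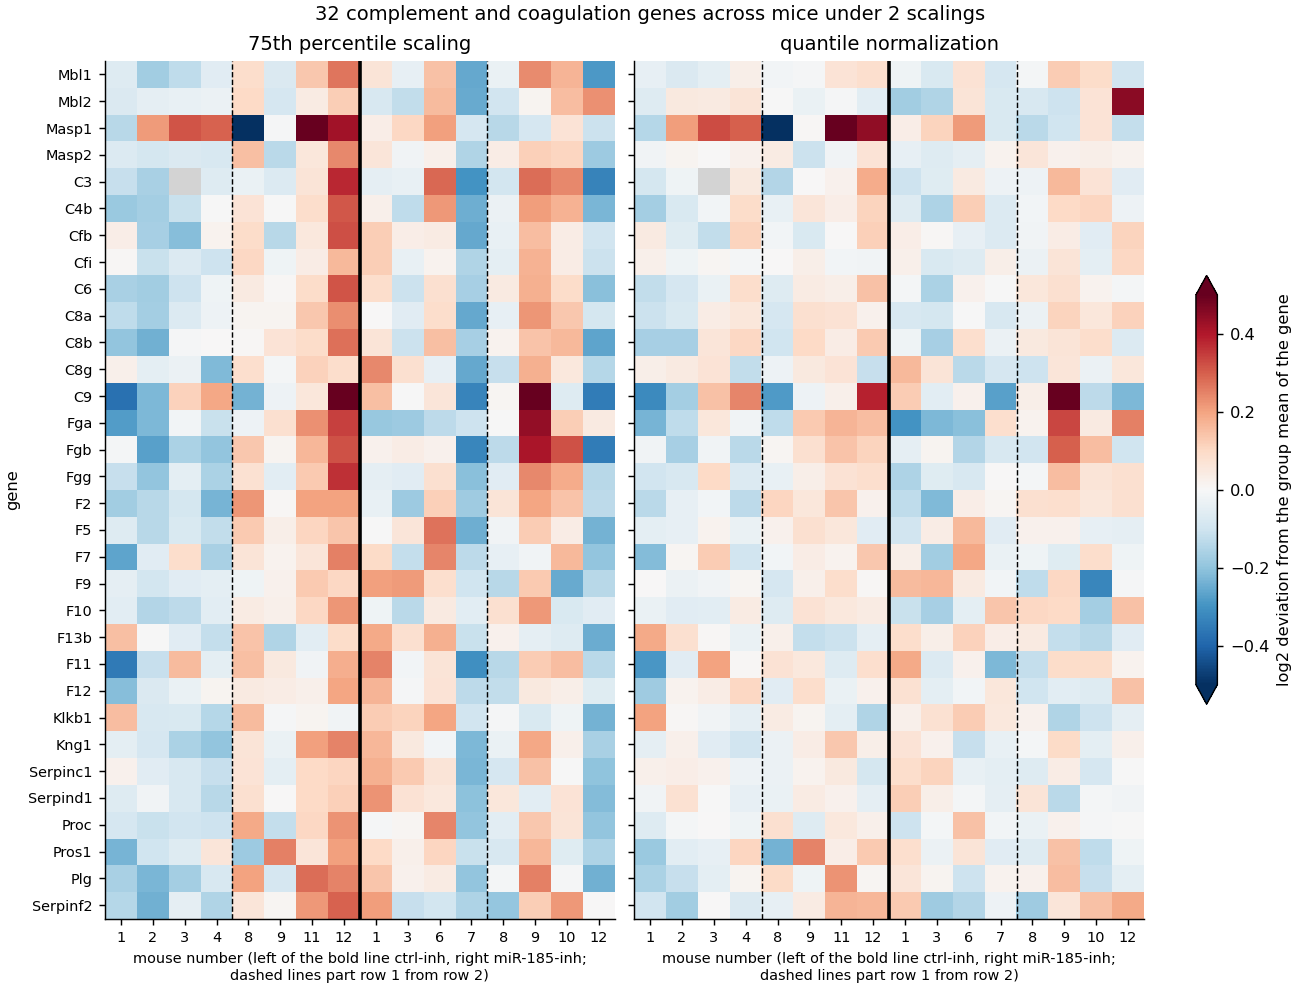
Log2 deviation of each gene (vertical axis) from its group mean in every mouse (horizontal axis), under 75th percentile scaling on the left and quantile normalization on the right, with the colour scale ending at 0.5 in either direction and the left-out C3 spot in grey. On the left, ctrl-inh mouse 12 and miR-185-inh mouse 9 are red and miR-185-inh mice 7 and 12 blue over most genes, and on the right these columns fade while C9 and the fibrinogen chains stay high in miR-185-inh mouse 9.

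The fibrinogen chains, C8a with C8b, F7 with F10, and the paralogs Mbl1 and Mbl2 were compared across the 8 mice of each group, 12 relations in all. Other neighbours, such as F11 and Klkb1, were not among them. The relations were tested with exact two-sided permutation tests over the 40320 pairings and adjustment over the 12. Since members were higher in row 2 of the ctrl-inh slide, as given below, each correlation was also taken after removing the row means, with the 576 pairings within rows as its exact test. This check was chosen after seeing the data. The tests ask whether a pair is correlated at all, while members in general were correlated. Their mean pairwise r was 0.608 in ctrl-inh and 0.594 in miR-185-inh mice, and 0.146 and 0.077 under quantile normalization. Whether any pair exceeded that mean was not tested, so a small p does not show a link particular to the pair. In ctrl-inh mice Fgb and Fgg, chains of one protein, gave Pearson r = 0.92 (exact p = 0.000645, adjusted p = 0.00387) and Spearman rho = 0.93 (exact p = 0.00223), and r = 0.85 without the 2 mice farthest from the median. In miR-185-inh mice the same pair gave r = 0.94 (exact p = 0.00139, adjusted p = 0.00556), rho = 0.81 (exact p = 0.0218) and 0.92 without 2 mice. C8a and C8b, neighbouring genes of the C8 complex, gave r = 0.95 (exact p = 0.000347, adjusted p = 0.00387), rho = 0.98 (exact p = 0.000397) and 0.85 without 2 mice in ctrl-inh. In miR-185-inh mice C8a and C8b gave r = 0.82 (exact p = 0.00995, adjusted p = 0.0199), rho = 0.90 (exact p = 0.00456) and 0.89 without 2 mice. Under quantile normalization these 4 correlations were 0.72, 0.64, 0.91 and 0.41, with adjusted p of 0.165, 0.188, 0.0560 and 0.462, so none of the 4 passed the adjustment there. With row means removed they were 0.82, 0.95, 0.90 and 0.86, with exact adjusted p of 0.0990, 0.0417, 0.0417 and 0.0417, so Fgb and Fgg in ctrl-inh mice no longer passed.

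In ctrl-inh mice Fga gave r = 0.77 (exact p = 0.0275, adjusted p = 0.0471), rho = 0.76 (exact p = 0.0368) and 0.82 without 2 mice with Fgb, and r = 0.89 (exact p = 0.00228, adjusted p = 0.00685), rho = 0.83 (exact p = 0.0154) and 0.84 without 2 mice with Fgg. With row means removed these fell to 0.33 (exact adjusted p = 0.619) and 0.72 (exact adjusted p = 0.208), so neither passed within rows. In miR-185-inh mice Fga gave r = 0.56 with Fgb (exact p = 0.151, adjusted p = 0.181), rho = 0.21 (exact p = 0.619) and -0.74 without mice 9 and 10. With Fgg it gave r = 0.67 (exact p = 0.0626, adjusted p = 0.0939), rho = 0.38 (exact p = 0.360) and -0.34 without mice 9 and 10. Under the 75th percentile both miR-185-inh relations of Fga rest on those mice. Quantile normalization gave Fga and Fgg 0.86 in ctrl-inh (adjusted p = 0.0560) and 0.95 in miR-185-inh mice (adjusted p = 0.00744), and Fga and Fgb 0.66 (adjusted p = 0.188) and 0.47 (adjusted p = 0.418). There Fga and Fgg in miR-185-inh mice kept r = 0.96 without mice 9 and 10, while Fga and Fgb gave -0.36. With row means removed as well, Fga and Fgg gave 0.81 in ctrl-inh and 0.88 in miR-185-inh mice (exact adjusted p = 0.0417 in both groups). No other relation passed that combined check. In ctrl-inh and miR-185-inh mice Fgb and Fgg gave 0.63 and 0.51 (exact adjusted p = 0.406 and 0.608). There C8a and C8b gave 0.90 and 0.17 (exact adjusted p = 0.139 and 0.847).

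Mbl1 and Mbl2, paralogs on different chromosomes, gave r = 0.88 in ctrl-inh mice (exact p = 0.00732, adjusted p = 0.0176), rho = 0.79 (exact p = 0.0279) and 0.76 without 2 mice. Quantile normalization turned this to -0.32 (adjusted p = 0.563), so its direction depends on the scaling, and with row means removed under the 75th percentile it was 0.79 (exact adjusted p = 0.274). In miR-185-inh mice the pair gave 0.24 (exact p = 0.555, adjusted p = 0.606), rho = 0.24 (exact p = 0.582) and 0.75 without mice 7 and 12, and -0.19 under quantile normalization. The adjacent genes F7 and F10 gave 0.61 in ctrl-inh (exact p = 0.108, adjusted p = 0.144), rho = 0.50 (exact p = 0.216) and 0.30 without 2 mice. In miR-185-inh mice they gave 0.19 (exact p = 0.659, adjusted p = 0.659), rho = 0.29 (exact p = 0.501) and 0.41 without 2 mice. Under quantile normalization F7 and F10 gave 0.13 and -0.14. All these values of F7 and F10 used only the F10 probe that was chosen through its miR-185-inh values. Across the arrays of both groups the r between that probe and the other F10 probe was 0.058. The relation of F7 to the other F10 probe was not tested, so these values do not show that the genes are weakly correlated.

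**Figure D4:**
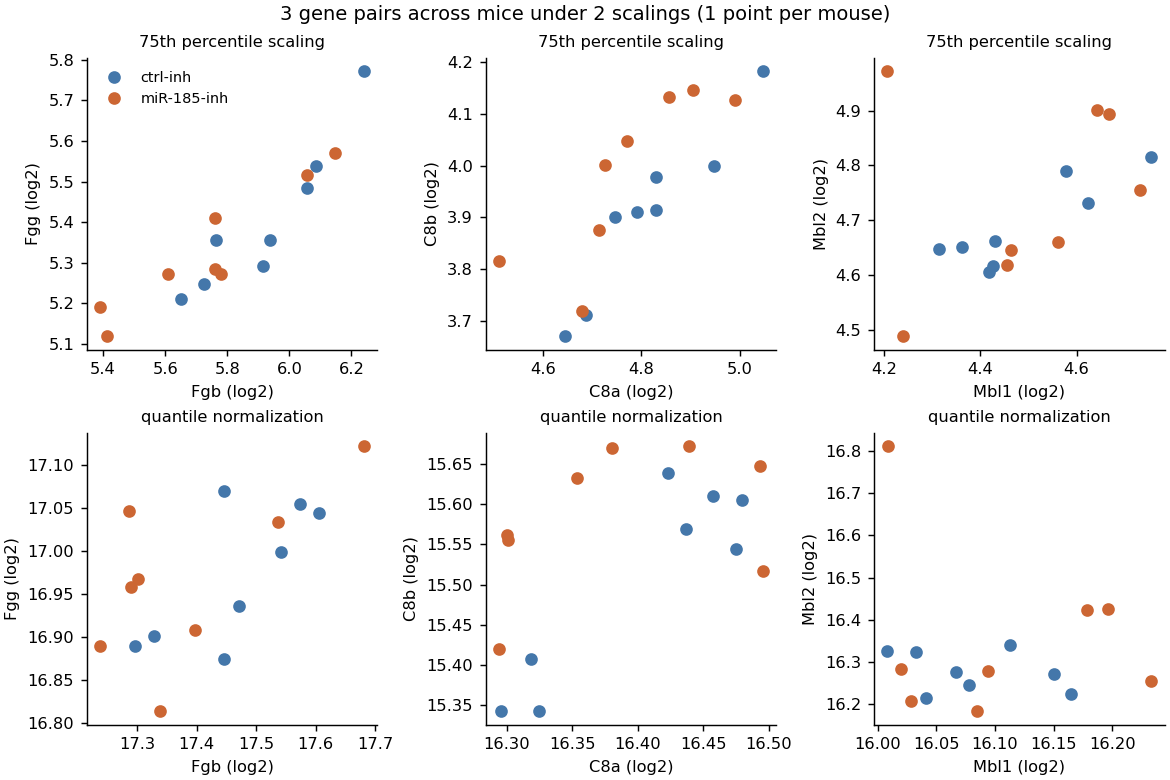
Log2 levels of Fgb against Fgg, C8a against C8b and Mbl1 against Mbl2, 1 point per mouse, under 75th percentile scaling (top) and quantile normalization (bottom), whose axes have different origins and spans. At the top Fgb and Fgg run along one line in both groups (r = 0.92 and 0.94), and at the bottom the Mbl1 and Mbl2 points of ctrl-inh mice no longer rise together (r = -0.32).

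Slide row, which is crossed with the groups, moved with the members. Within the ctrl-inh slide 31 of 32 genes were higher in row 2 than in row 1, against 67.2% of all features, with a median row difference of 0.195 against 0.089. By limma 1 of the 32, F2, passed the adjusted test for a row difference, with 0.32 (SE 0.07, adjusted p = 0.0499996), where 4.67% of all features did. Within the miR-185-inh slide 19 of 32 genes were higher in row 2, against 51.2% of all features, the median row difference was 0.027, and no member passed by limma, where 0.00% of all features did (1 member, Fga, had an unadjusted p under 0.05). Bright features shared the ctrl-inh pattern, with 91.4% higher in row 2 and a median of 0.131. Under quantile normalization 23 of 32 members and 51.3% of bright features were higher in row 2 of the ctrl-inh slide, and the members' median was 0.050, with F2 at 0.16. On the ctrl-inh slide 68.6% to 74.8% of spots were well above background in row 1 and 58.7% to 64.2% in row 2. Median signals there ran from 236 to 268 in row 1 and from 182 to 248 in row 2. The part of these array values in the row differences was not tested. Row and mouse cannot be told apart within a slide, since each mouse lies in one row.

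Read within rows, the difference between the groups was lower in row 2 than in row 1 for 30 of the 32 genes, against 66.1% of all features and 91.1% of bright features. Under quantile normalization this held for 20 of the 32 genes, 57.5% of all features and 51.4% of bright features, so the pattern depends on the scaling. Its median over members was 0.087 in row 1 and -0.092 in row 2, and 0.016 and 0.020 under quantile normalization. Mbl2 and Masp1 were the exceptions under the 75th percentile. No member had a tested difference between rows by limma at an adjusted p under 0.05, where 0.376% of all features did, and 1 member, F9, had an unadjusted p under 0.05. F9 differed by -0.0031 among row 1 mice and by -0.32 among row 2 mice (interaction, adjusted p = 0.258). F10 and F2 lay above zero in both rows, at 0.26 and 0.15 for F10 and 0.28 and 0.10 for F2. Cfb and Cfi lay below zero in both, at -0.11 and -0.24 for Cfb and -0.09 and -0.21 for Cfi.

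**Figure D5:**
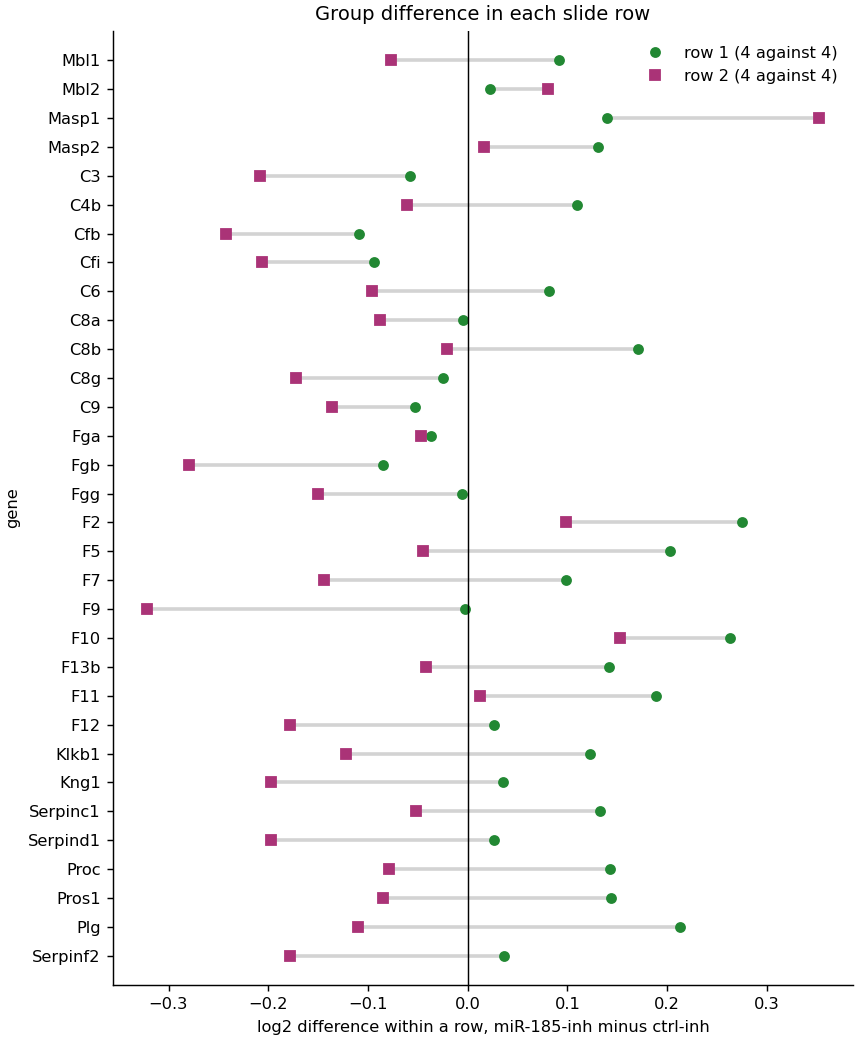
Log2 difference (miR-185-inh minus ctrl-inh) of each gene within slide row 1 (circles) and row 2 (squares), 4 mice against 4 in each row. Squares lie to the left of circles for 30 of 32 genes under the 75th percentile scaling plotted here, and for 20 of 32 under quantile normalization.

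Other genes of the same systems were read from lists fixed by name. For the counts below, 58.0% of all features lay below zero, 20.3% had an unadjusted p under 0.05 and 4.74% passed limma. Among 28 tested further complement genes, such as the C1q chains and receptors, none passed limma over all features and 1 had an unadjusted p under 0.05, with a median difference of -0.04. Among 28 tested further coagulation and fibrinolysis genes 1 passed and 3 had an unadjusted p under 0.05. It was F13a1, the catalytic chain of factor XIII, which macrophages and platelets make, in contrast to its hepatic carrier F13b. F13a1 fell to 0.499 of its ctrl-inh level (log2 SE 0.27, adjusted p = 0.0441 by limma), from -2.64 ± 0.48 (SD, n = 8) to -3.64 ± 0.69 (SD, n = 8), well above background on all arrays, with log2 differences of -1.25 in row 1 and -0.75 in row 2. Kupffer cell and macrophage markers lay below zero in 12 of 14 genes (median -0.09, none past the test, none with an unadjusted p under 0.05), and platelet markers in 6 of 7 (median -0.20, none past the test, 4 with an unadjusted p under 0.05). Per mouse, the Kupffer list's median deviation ran from -0.23 to 0.29 in ctrl-inh and from -0.47 to 0.19 in miR-185-inh mice, and the platelet list's from -0.27 to 0.29 and from -0.18 to 0.13. Their part in the F13a1 difference was not tested.

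Of 24 acute phase genes 21 lay below zero, against 58.0% of all features, with a median of -0.22. None passed limma and 6 (25%) had an unadjusted p under 0.05, against 20.3% of all features. Liver transcription and interleukin-6 signalling genes had a median of 0.08, with none of 19 past the test and 5 (26.3%) with an unadjusted p under 0.05. The 25 hepatocyte genes had a median of -0.02, with none past the test and 3 with an unadjusted p under 0.05. Neutrophil markers lay below zero in all 11 genes tested, with a median of -0.83. Of these, Ngp, a granule protein, passed limma with a difference of -1.22 (SE 0.33, adjusted p = 0.0427). Ltf, lactoferrin, stood well above background on 8 arrays of the ctrl-inh group and on 3 of the other. It passed the filter only through the ctrl-inh group, so its limma call is not counted and no size is given. The 11 genes and their median still include Ltf. The neutrophil list's median deviation per mouse ran from -0.68 to 1.28 in ctrl-inh and from -1.66 to 0.35 in miR-185-inh mice. Their part in the acute phase values was not tested. Endothelial, stellate and cholangiocyte markers had medians of 0.05, 0.07 and 0.07, with no gene past the test and 0, 1 and 0 genes with an unadjusted p under 0.05.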

How the data were processed

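Liver RNA of 8 ctrl-inh and 8 miR-185-inh samples was measured on 1-colour Agilent arrays, grouped by the treatment field of the labels. The deposited scanner files hold one processed intensity per spot, background-corrected in Feature Extraction 11.5.1.1 per the file headers, while the submitters' processing notes name version 9.1. The authors' deposited value table is on a log2 scale and equals log2 of the processed intensity minus 1 constant per array (largest SD of the difference 4.05e-07, column medians -1.30 to -1.22), and the choice of that constant is not stated in the labels.

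Values are log2 of the processed intensity minus the 75th percentile of each array over non-control spots, without outlier spots and with spots of a probe averaged. Probes well above background on at least 8 of 16 arrays were kept. A gene is represented by its brightest probe, by the mean over the arrays of both groups. Of 55681 probes 26762 were named by matching their accession, without version, to the RefSeq table of GRCm38.p6, used for names because the array grid is on mm9. The group difference was tested two-sided in R 4.3.3 with lmFit and eBayes of limma 3.58.1 (Benjamini-Hochberg over 25801 features, threshold 0.05). This fit was also run on simulated independent genes, without slide, row or correlation between genes, so that run does not cover these. Single genes also had an exact permutation test (6435 distinct arrangements into 8 and 8). Correlations and figures were made in Python 3.11.15.

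The genes named with lowest, median and highest values are, in each role group, the one with the smallest p and the one with the largest spread within groups. The others are given by difference and error, and from other lists those past limma. The members and lists were chosen with earlier results of these data known. Normexp (offset 50) was run on the median spot signal in place of the mean. Sequences are from RefSeq, and 25 of 32 members matched a promoter. The number of arrays limits the precision.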

Additional observations from a re-analysis of the deposited data

Results flagged for a closer look

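Among 64 sets of values, 1 for each of the 32 genes in each group, the highest or lowest mouse stood apart from the others by Dixon's 95% criterion in 2, where chance gives about 1 in 20. Masp1 in ctrl-inh mouse 8 was at -2.44, with the other 7 mice between -0.85 and -0.09. C3 in ctrl-inh mouse 12 was at 6.35, with the next mouse at 6.04 and 7 values in the group.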

How the results depend on the processing

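No member passed limma in the reported setting, and F10 alone passed under quantile normalization (1 member, difference 0.23, adjusted p = 0.0382) and with array weights (1 member, 0.26, adjusted p = 0.0195). No member passed when 1 mouse was left out, and F10 stayed above zero in all alternatives. The other F10 probe read alone was not among them, and it gave -0.10 (exact two-sided permutation p = 0.179). The F10 calls rest on a probe that was chosen through its miR-185-inh values. Of 960 values of single genes under alternatives, 886 kept their direction and side of the threshold, 72 changed sign and 2 newly passed; every sign change was of a difference that passed no test. Over the alternatives Cfi ran from -0.21 to -0.028 and F9 from -0.32 to -0.0031 (highest adjusted p by limma 0.854 and 0.989). Cfb ran from -0.24 to -0.11, F2 from 0.098 to 0.29 and F10 from 0.055 to 0.26. The members' median turned to 0.0064 under quantile normalization, 0.028 with array weights and 0.087 in row 1. It ran from -0.024 to 0.025 when 1 mouse was left out. Features called over the whole table moved from 1223 to 0 in row 1 and 474 in row 2, with 4 arrays per group each, and ran from 749 to 1587 when 1 mouse was left out (749, 788 and 790 without miR-185-inh mouse 7, miR-185-inh mouse 6 and ctrl-inh mouse 12). The cause was not tested.

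Sign changes under normexp were Mbl1 -0.037, Mbl2 -0.015, C4b -0.058, C8b -0.015, C9 0.021, Fga 0.026, F5 -0.011, Kng1 0.014, Proc -0.042 and Plg -0.035. With a percentile over detected probes they were Mbl1 -0.018, C4b -0.0013 and Klkb1 -0.025. C6 turned to 0.0048 under quantile normalization and 0.034 with array weights. In row 1 alone the values were C6 0.082, F7 0.098, F12 0.026, Kng1 0.035, Serpind1 0.027 and Serpinf2 0.037. In row 2 alone they were Mbl1 -0.076, C4b -0.061, C8b -0.020, F5 -0.045, F13b -0.042, Klkb1 -0.122, Serpinc1 -0.052, Proc -0.079, Pros1 -0.085 and Plg -0.110. Leaving out 1 mouse, sign changes occurred for C4b (-0.0069 to 0.069), C6 (-0.032 to 0.038), F7 (-0.061 to 0.013), Fga (-0.10 to 0.0073), Klkb1 (-0.028 to 0.034), Masp1 (-9.67e-05 to 0.34), Mbl1 (-0.026 to 0.049), Proc (-0.0028 to 0.064) and Pros1 (-0.0039 to 0.065). Quantile normalization turned r for Mbl1 and Mbl2 to -0.32 (ctrl-inh) and -0.19 (miR-185-inh), and for F7 and F10 to -0.14 (miR-185-inh). The Fga probe ratio passed adjustment under normexp (0.40, adjusted p = 0.00777), and that of F10 was 0.31 under quantile normalization and 0.25 under normexp.

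Mice 1, 3, 8, 9 and 12 share a number across groups, with correlations of deviations from -0.13 to 0.11, so the numbers are not taken as pairing. The fit with the replicate block on those 10 arrays called 0 members and 0 features, as did the same arrays without the block, and gave a members' median of -0.026, with Mbl1 -0.024, C4b -0.022, Klkb1 -0.057 and Proc -0.013 below zero. Choosing the brightest unsaturated probe was not run separately, since no spot was saturated. Alternatives for probe ratios, gene pairs, bright features and rows were chosen after seeing the data.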
